A study of Homo sapiens with 12 samples.

Results

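The genes described here are the protein-coding genes of human chromosome 19 whose symbol is ZNF followed by a number, taken from RefSeq on GRCh38, with ZNF846 not included. They number 239 of 19974 protein-coding genes placed on the chromosomes used. They were followed in 12 lists of H3K27ac peaks from chromatin immunoprecipitation and sequencing of CFPAC1 and MiaPaCa2, both established pancreatic ductal adenocarcinoma cell lines. There were 6 groups of 2 libraries. Bulk CFPAC1 and bulk MiaPaCa2 were either untreated or treated with 1000 U/ml of human interferon beta (IFN-β) for 2 h. The other two groups were clones of CFPAC1 grown from diluted cells after infection with a lentiviral CRISPR plasmid: wild-type (WT) clones with the plasmid, and IRF1 knockout (KO) clones, whose plasmid also expressed Cas9 and a guide RNA against IRF1, an interferon-induced transcription factor. The labels name no interferon for the clones, each clone library comes from 1 clone, and CFPAC1 and MiaPaCa2 were grown in different media. The labels do not say that the libraries of a group came from separate cultures, so p-values measure only the spread between libraries, which may be technical.

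Zinc finger genes of this kind encode DNA-binding proteins with arrays of zinc fingers, many with a KRAB domain at the front. KRAB binds the corepressor TRIM28, which brings in the histone methyltransferase SETDB1, heterochromatin proteins and other silencing factors, and much of the family is known for holding transposable elements silent. The genes lie in tandem clusters on chromosome 19 that arose by duplication, so neighbours are similar in sequence. H3K27ac marks active promoters and enhancers, and a peak at a gene's start is commonly read as a promoter in use.

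The sequences below are the 250 bases before the start of 7 members on which the results turn, 5′ to 3′ on the gene's strand. They come from RefSeq on GRCh38.p14, with every CG in capitals. DNA methylation was not measured in these libraries. ZNF470 (chr19:56567218-56567467, + strand) and ZNF71 (chr19:56595052-56595301, + strand) had peaks in MiaPaCa2 alone, and their neighbour ZNF667 (chr19:56477346-56477595, − strand) had none in any library. ZNF229 (chr19:44448473-44448722, − strand) and ZNF69 (chr19:11887532-11887781, + strand) had peaks in CFPAC1 alone. ZNF257 (chr19:22052234-22052483, + strand) and ZNF93 (chr19:19900696-19900945, + strand) had peaks only in clones.
ZNF470: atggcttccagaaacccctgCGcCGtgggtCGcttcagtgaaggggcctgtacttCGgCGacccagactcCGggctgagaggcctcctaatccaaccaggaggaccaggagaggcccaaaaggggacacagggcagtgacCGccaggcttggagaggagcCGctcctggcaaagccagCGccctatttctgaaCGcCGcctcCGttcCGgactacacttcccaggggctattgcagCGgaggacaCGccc
ZNF71: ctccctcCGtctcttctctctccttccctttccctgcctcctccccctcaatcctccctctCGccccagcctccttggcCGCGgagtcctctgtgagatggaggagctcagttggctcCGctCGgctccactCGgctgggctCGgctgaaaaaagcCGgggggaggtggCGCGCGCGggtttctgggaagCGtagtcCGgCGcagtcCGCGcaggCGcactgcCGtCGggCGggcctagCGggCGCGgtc
ZNF667: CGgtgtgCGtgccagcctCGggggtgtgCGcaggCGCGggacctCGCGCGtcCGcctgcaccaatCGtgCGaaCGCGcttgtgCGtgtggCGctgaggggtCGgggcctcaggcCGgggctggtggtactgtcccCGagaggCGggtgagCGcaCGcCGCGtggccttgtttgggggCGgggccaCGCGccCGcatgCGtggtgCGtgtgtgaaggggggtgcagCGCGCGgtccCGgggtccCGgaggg
ZNF229: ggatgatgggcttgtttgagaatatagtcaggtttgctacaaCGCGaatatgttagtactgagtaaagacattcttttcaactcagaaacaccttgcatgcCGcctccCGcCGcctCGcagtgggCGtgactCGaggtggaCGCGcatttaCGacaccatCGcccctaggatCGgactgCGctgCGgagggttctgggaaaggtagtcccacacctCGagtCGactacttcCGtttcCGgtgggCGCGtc
ZNF69: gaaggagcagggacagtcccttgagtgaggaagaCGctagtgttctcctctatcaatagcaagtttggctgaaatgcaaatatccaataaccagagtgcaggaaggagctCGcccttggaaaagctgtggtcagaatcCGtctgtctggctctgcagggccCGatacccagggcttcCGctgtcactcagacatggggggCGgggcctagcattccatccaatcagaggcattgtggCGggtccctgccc
ZNF257: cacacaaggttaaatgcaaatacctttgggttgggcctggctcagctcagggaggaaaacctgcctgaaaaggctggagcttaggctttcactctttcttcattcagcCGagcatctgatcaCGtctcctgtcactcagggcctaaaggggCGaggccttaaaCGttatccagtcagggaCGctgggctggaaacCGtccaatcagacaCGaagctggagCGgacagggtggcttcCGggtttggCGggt
ZNF93: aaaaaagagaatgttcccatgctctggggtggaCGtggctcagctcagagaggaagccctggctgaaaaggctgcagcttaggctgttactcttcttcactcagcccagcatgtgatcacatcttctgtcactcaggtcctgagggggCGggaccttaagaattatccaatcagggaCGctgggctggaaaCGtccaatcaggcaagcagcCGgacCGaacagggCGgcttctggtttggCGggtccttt

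ZNF667 held 35 CG in this window, ZNF71 25, ZNF229 21, ZNF470 15, ZNF257 10, ZNF93 8 and ZNF69 7. A promoter entry was found for 209 of the 239 members. The 136 of these that were covered in all 12 libraries had a median of 17 CG, and the 31 at 0 bp in all 12 a median of 14. Among all protein-coding genes with an entry, 2835 at 0 bp in all 12 libraries had a median of 4 CG, and 9395 covered in all 12 a median of 21. Of members at 0 bp in all 12 libraries 83.9% held 10 CG or more, and of all genes at 0 bp 29.5%. These shares are given without a test.

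For each gene, coverage was taken as the bp that peaks occupy inside 5 kb on each side of either gene end. The 12 lists held 59896 to 109834 peaks, which covered 63.6 to 94.8 Mb. Chromosome 19 held 5.78% to 7.52% of the peaks in the 4 MiaPaCa2 libraries and 3.04% to 3.76% in the 8 CFPAC1 libraries, without overlap. Of the epithelial markers examined, the keratins KRT8, KRT18 and KRT19 and MUC1 were covered in every library and KRT7 in 11. EPCAM and CDH1 were at 0 bp in all 4 MiaPaCa2 libraries. MUC1 held 6331 to 9948 bp in MiaPaCa2 and 4423 to 6065 bp in bulk CFPAC1, and KRT7 0 to 1786 bp and 5902 to 8944 bp. The mesenchymal markers were mixed. VIM held 13255 to 15647 bp in MiaPaCa2 and 3583 to 3953 bp in bulk CFPAC1, and ZEB1 3532 to 3850 bp and 4316 to 5683 bp. CDH2 and FN1 were at 0 bp in all 4 MiaPaCa2 libraries. Of 9 markers of blood cells, endothelial cells and fibroblasts, 2 (PTPRC and DCN) were at 0 bp in all 12. Another 3 (CD79A, LYZ and CDH5) were covered in all 12, and 4 (CD3E, PECAM1, COL1A1 and COL1A2) in 7 to 10. The windows of IRF1 itself held 5485 and 6341 bp in WT clones and 8271 and 14027 bp in KO clones. Peaks do not show whether the gene was edited, so the knockout label was not checked.

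Most members carried H3K27ac, with narrow peaks. Between 167 and 190 of the 239 members had a peak in a library, 69.9% to 79.5% of them, beside 64.6% to 74.5% of all genes, and the members' share was the higher in 12 of 12 libraries. In each of the 12 libraries the widest peak of covered members had a median of 869.5 to 1440 bp, below the median of all covered genes, 1439 to 1988.5 bp. ZNF genes on other chromosomes had a larger covered share than members, 80.6% to 87.8%, and medians of 1279 to 1918 bp. The other genes of chromosome 19 had shares of 67.8% to 78.8% and medians of 1137 to 1971 bp. The members' median lay below theirs in 12 of 12 libraries. The fold enrichment given by the authors for the strongest peak of each member, read only within a library, also had a lower median than that of all covered genes in 12 of 12 libraries. Coverage lay at gene starts. Of 183 members with a known start and more than 10 kb between their ends, 66.7% to 77.6% were covered at the start and 13.1% to 15.3% at the far end.

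Over the libraries, 151 members (63.2%) were covered in all 12, 37 (15.5%) were at 0 bp in all 12, 3 were covered in 1 library and 48 in 2 to 11. Of all genes, 57.1% were covered in all 12 and 19.2% in none, and of the 237 ZNF genes on other chromosomes 77.2% and 10.1%. A value of 0 bp says that no peak passed the authors' threshold, not that the mark was absent. The 3 members covered once were ZNF43 (667 bp in WT clone 1), ZNF28 (209 bp in CFPAC1 untreated 1) and ZNF444 (240 bp in MiaPaCa2 interferon 2). These 40 members were not tested, which left 199. Of the 239 members, 144 share a window with another protein-coding gene, so a peak there counts for both.

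**Figure D1:**
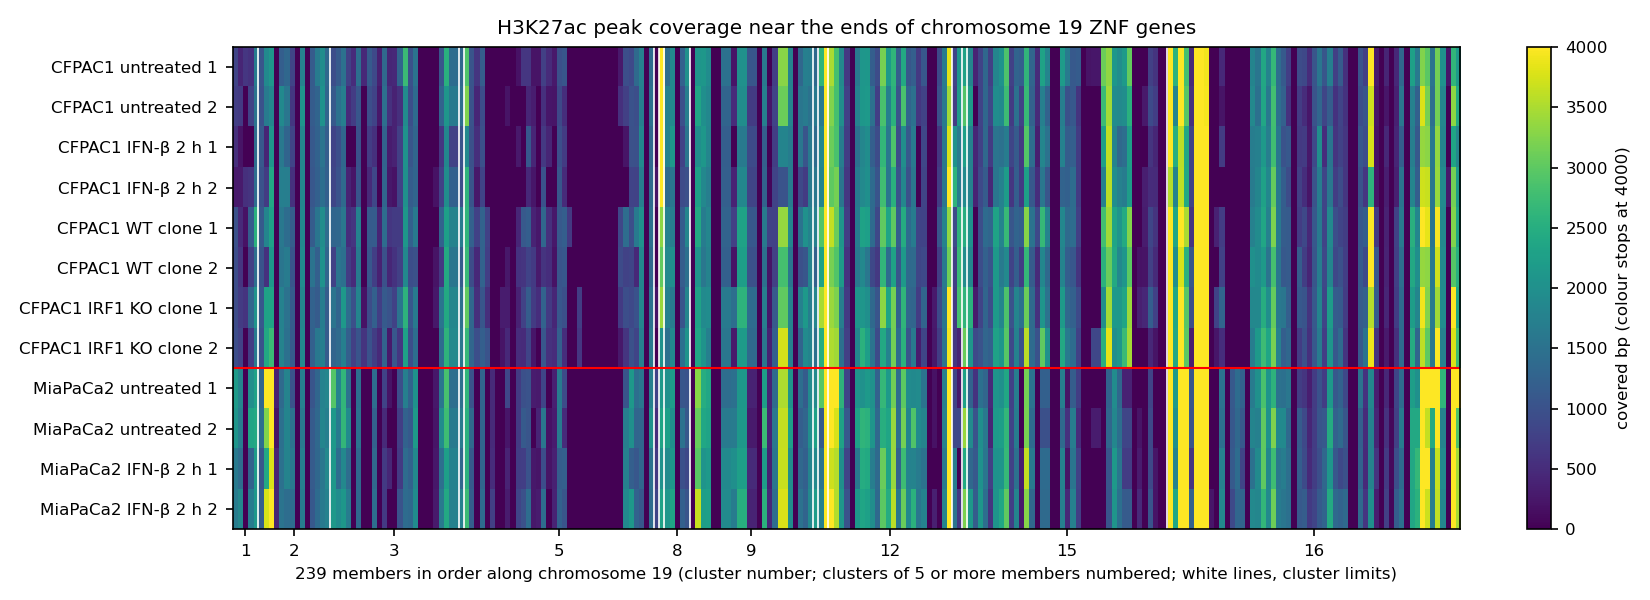
Covered bp of each of the 239 members (columns, in order along chromosome 19) in each of the 12 libraries (rows); colour gives covered bp and stops at 4000, white lines separate clusters, and the red line separates CFPAC1 from MiaPaCa2. Of the 239 members, 151 are covered in all 12 libraries and 37 in none. The dark block in cluster 5 holds the 7 adjacent members from ZNF676 to ZNF728, at 0 bp throughout.

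Some members varied little over lines, treatments and clones. Among the 151 members covered in all libraries, ZNF180 had the smallest coefficient of variation over the 12 libraries, 5.49%, with a range of 1534 to 1812 bp. ZNF266 followed with 6.68% (1621 to 2048 bp) and ZNF573 with 7.65% (1505 to 1975 bp). At the other end stood ZNF555 with 67.1%, ZNF587 with 64.9% and ZNF358 with 61.7%. ZNF555 separated the lines, with 1426 to 1868 bp in MiaPaCa2 and 216 to 788 bp in the 8 CFPAC1 libraries. ZNF587 separated clones from bulk CFPAC1 instead, with 593 to 1178 bp in the 4 clones, 203 to 286 bp in bulk CFPAC1 and 320 to 601 bp in MiaPaCa2.

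The lines differed in which members had a peak at all. A member was counted as silent in 1 line only if every library of that line was at 0 bp and every library of the other had at least 1 bp. Silent in MiaPaCa2 only were 6 of 239 members, ZNF69, ZNF844, ZNF506, ZNF229, ZNF610 and ZNF888, beside 4.2% of all genes. Silent in CFPAC1 only, bulk and clones, were 5 members, ZNF558, ZNF682, ZNF471, ZNF470 and ZNF71, beside 0.876% of all genes. These genes were chosen by these values, so their levels are described here without a test of their own. All of them also entered the comparison of the lines below and are among its called members. The choice fixed that outcome in large part.

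ZNF888 had the most coverage of the 6 that were silent in MiaPaCa2. It held 3102 and 2722 bp in untreated CFPAC1, 2259 and 1760 bp with interferon, 2792 and 2562 bp in WT clones and 1970 and 2529 bp in KO clones. Its peaks, up to 2676 bp wide and 22.8-fold by the authors' value, lie within chr19:52921780-52925424, and its windows overlap those of ZNF320. ZNF229 held 898 and 990 bp in untreated CFPAC1, 644 and 731 bp with interferon, 1055 and 741 bp in WT clones and 920 and 720 bp in KO clones, all at its start, within chr19:44447562-44448854. ZNF69 held 1129 and 959 bp, then 709 and 469 bp with interferon, 1152 and 1088 bp in WT clones and 925 and 1010 bp in KO clones. In these 3 genes both interferon-treated libraries lay below both untreated ones, as in 31.8% of all genes, while the range of the clones overlapped that of untreated cells. ZNF844 ranged from 200 to 1080 bp over the 8 CFPAC1 libraries and ZNF506 from 257 to 963 bp. ZNF610 ranged from 333 to 1001 bp, but its peak lies outside the gene, over ZNF880. With a floor of 500 bp in every CFPAC1 library, 2 of the 6 remained, and with peaks of −log10 q of at least 5, 3 did.

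The 3 neighbours ZNF471, ZNF470 and ZNF71 were silent in CFPAC1 and covered in every MiaPaCa2 library. ZNF470 held 1416 and 1352 bp in untreated MiaPaCa2 and 1419 and 1317 bp with interferon, in a single peak over its start at chr19:56566825-56568295 with an authors' fold of 14.0 to 18.5. ZNF71 held 1257 and 1121 bp, and 824 and 1307 bp with interferon, over its start at chr19:56594850-56596222. ZNF471 held 1121 and 1104 bp, and 1132 and 878 bp with interferon, at chr19:56507382-56508536. Treated and untreated MiaPaCa2 libraries overlapped in ZNF71 and ZNF471 and nearly coincided in ZNF470. In order along the chromosome these 3 genes stand between ZNF667 and ZNF835, both at 0 bp in all 12 libraries, so that all 5 adjacent members of chr19:56439329-56671757 were at 0 bp in all 8 CFPAC1 libraries. ZNF470 also shares its start with ZNF470-DT, and ZNF471 shares a window with ZFP28.

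The other two members silent in CFPAC1 lie elsewhere and had less coverage. ZNF682 held 475 and 469 bp in untreated MiaPaCa2 and 507 and 764 bp with interferon, at its start at chr19:20038819-20039589. ZNF558 held 366 and 212 bp, and 398 and 408 bp with interferon. Its start in RefSeq's promoter table lies inside the gene, so only part of a peak region of up to 2176 bp at chr19:8831374-8833551 fell in the window. A floor of 500 bp in every MiaPaCa2 library left ZNF471, ZNF470 and ZNF71. With the gene start as the only window, 3 of the 5 members silent in CFPAC1 only remained, and ZNF331 and ZNF577 were added. ZNF471 has no recorded start and could not be counted there. ZNF536, a regulator of neuronal differentiation, came close to the rule, with 810 and 529 bp in untreated and 667 and 840 bp in treated MiaPaCa2, 205 bp in 1 interferon-treated CFPAC1 library, 218 bp in 1 KO clone and 0 bp in the other 6; it was chosen for mention after its values were seen.

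**Figure D2:**
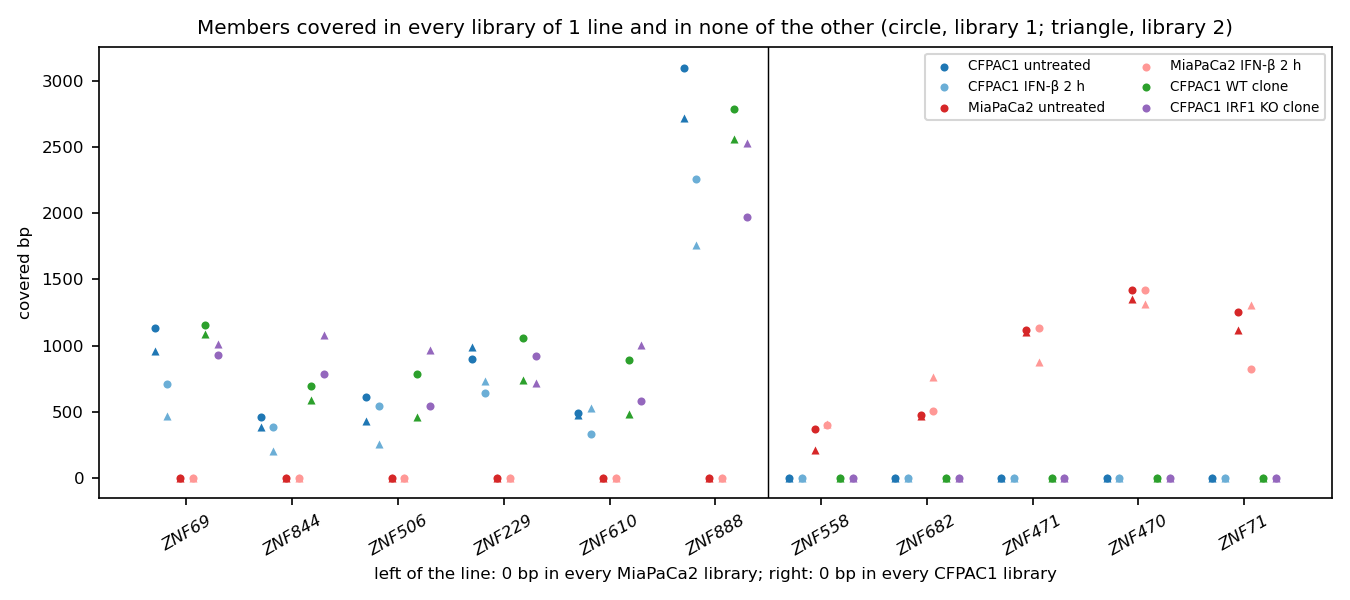
Covered bp (vertical axis) of the 11 members with peaks in every library of 1 line and none in the other; each point is a library, circles for library 1 and triangles for library 2 of a group. ZNF888 stands highest, at 1760 to 3102 bp in CFPAC1, and ZNF470, ZNF71 and ZNF471 hold 824 to 1419 bp in MiaPaCa2.

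The comparison of the bulk lines set 4 MiaPaCa2 against 4 CFPAC1 libraries, on the log2 scale of covered bp + 500 (limma, Benjamini-Hochberg over 15544 tested genes). Of 199 tested members, 87 were higher in MiaPaCa2, beside 35.3% of all genes, and 24 were lower, beside 23.9% (59.2% of all genes differed in either direction). The 87 include the 5 members silent in CFPAC1 only, and the 24 include the 6 silent in MiaPaCa2 only. Those members met the filter through the line with peaks alone. In raw bp, 84 members had all 4 MiaPaCa2 libraries above all 4 of CFPAC1, beside 29.8% of tested genes, and 24 had them below, beside 20.7%. The members' median log2 difference was 0.25, all genes' 0.12. ZNF genes on other chromosomes had 85 higher and 41 lower of 211, with a median of 0.20. The other genes of chromosome 19 had 673 higher and 89 lower of 977, with a median of 0.65. The larger share of peaks on chromosome 19 in MiaPaCa2 moved with this result, and its part was not tested. When libraries were centred on chromosome 19 genes, an alternative added after seeing the data, the median of all genes shifted to −0.44 and that of members to −0.31, and 19 members were higher and 92 lower, beside 11.3% and 57.3% of all genes. All 24 members lower by the first centring were lower by the second, 19 of the 87 stayed higher, and 3 of the 87 became lower.

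**Figure D3:**
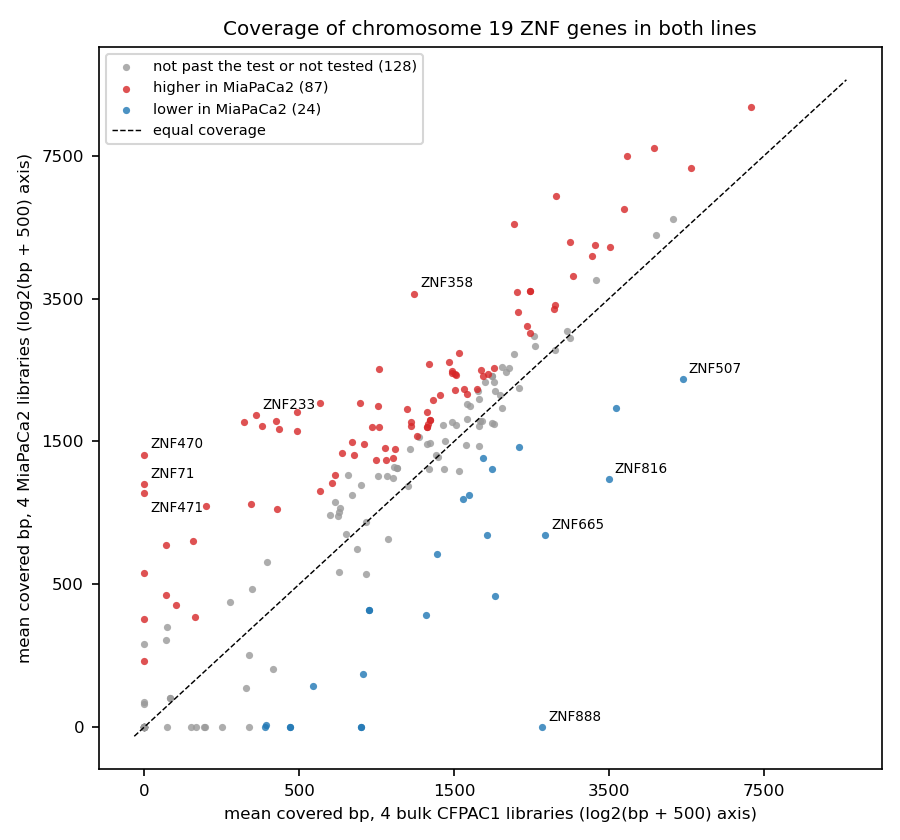
Mean covered bp in 4 bulk CFPAC1 libraries (horizontal) and in 4 MiaPaCa2 libraries (vertical), each on a log2(bp + 500) axis, for the 239 members; red and blue mark the 87 higher and 24 lower members by limma. ZNF888 lies on the lower edge at 0 bp in MiaPaCa2, and ZNF470, ZNF71 and ZNF471 on the left edge at 0 bp in CFPAC1.

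Beyond the silent members, the largest differences in favour of MiaPaCa2 were in ZNF233, ZNF850 and ZNF583. ZNF233 held 1934 and 1919 bp in untreated and 1663 and 1572 bp in treated MiaPaCa2, against 669 and 626 bp in untreated CFPAC1 and 0 bp in both treated CFPAC1 libraries. All 4 MiaPaCa2 libraries exceeded all 8 of CFPAC1, and the log2 difference was 1.59 ± 0.16 (SE, adjusted p = 1.46e-05). ZNF850 held 1474 and 1665 bp, then 1994 and 1672 bp with interferon, against 0 to 499 bp in bulk CFPAC1, a difference of 1.55 ± 0.31 (adjusted p = 0.00181). KO clone 1, at 1451 bp, came close to the MiaPaCa2 range, while the other 3 clones held 213 to 765 bp. ZNF583 held 1480 to 1867 bp in MiaPaCa2 and 0 to 702 bp in bulk CFPAC1, a difference of 1.43 ± 0.28 (adjusted p = 0.00152), without overlap.

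ZNF358, ZNF555, ZNF441 and ZNF57 completed the 10 largest of this direction, with log2 differences of 1.29 to 1.38. ZNF358 held 2415 to 4993 bp in MiaPaCa2 and 412 to 1891 bp in bulk CFPAC1, part of it at MCOLN1 next to its far end. In ZNF441, 1429 to 1907 bp in MiaPaCa2 stood against 0 to 769 bp in bulk CFPAC1, but KO clones 1 and 2 held 1428 and 1206 bp. ZNF57 and ZNF555 lie close together near the end of the short arm, where 4 of 5 members of their cluster were higher in MiaPaCa2. ZNF91, a known repressor of SVA retrotransposons, was higher by 0.72 ± 0.13 (adjusted p = 7.60e-04), with 1218 to 2135 bp in MiaPaCa2 and 809 to 1014 bp in bulk CFPAC1. ZNF274, which is known to bind the zinc finger genes themselves and to recruit SETDB1 there, was higher by 0.71 ± 0.13 (adjusted p = 0.00123), with 2001 to 2667 bp against 1109 to 1615 bp. Centred on chromosome 19 genes, neither passed the test, with 0.16 ± 0.15 for ZNF91 (adjusted p = 0.349) and 0.15 ± 0.16 for ZNF274 (adjusted p = 0.410). ZNF91 and ZNF274 were named for these roles after their values were seen.

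The members lower in MiaPaCa2 and still covered there included ZNF816, ZNF665, ZNF114, ZNF836, ZNF701 and ZNF507. ZNF507 held the most: 5472 and 5463 bp in untreated CFPAC1, 4639 and 4679 bp with interferon, 2153 and 2336 bp in untreated MiaPaCa2 and 2041 and 2295 bp with interferon. Its log2 difference was −1.03 ± 0.12 (adjusted p = 5.36e-05), and its clones, at 2033 to 3405 bp, lay below bulk CFPAC1 and reached into the MiaPaCa2 range. ZNF816 held 3330 to 3619 bp in bulk CFPAC1, 3087 to 3843 bp in clones and 1032 to 1314 bp in MiaPaCa2, a difference of −1.26 ± 0.08 (adjusted p = 8.79e-07). Part of the CFPAC1 coverage lies past its far end in ZNF816-ZNF321P, where MiaPaCa2 had no peak.

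ZNF114 was the least even of these, with 1659 to 2199 bp in bulk CFPAC1 and 0 to 872 bp in MiaPaCa2. Its difference of −1.44 ± 0.39 (adjusted p = 0.00919) was not past the threshold in untreated libraries alone (adjusted p = 0.0680), and KO clone 2 held 394 bp against 2817 bp in KO clone 1. ZNF665 differed by −1.27 ± 0.15 (adjusted p = 4.53e-05), with 2206 to 3048 bp in bulk CFPAC1 and 389 to 1141 bp in MiaPaCa2. By its better-covered end alone it differed by −0.26 (adjusted p = 0.160), and some of its coverage lies at ZNF347 and LOC124904792. ZNF836 differed by −1.05 ± 0.16 (adjusted p = 3.25e-04), and it was not past the threshold in interferon-treated libraries alone (adjusted p = 0.0685) or with the same number of peaks per library (−0.61, adjusted p = 0.246). ZNF701 differed by −1.03 ± 0.18 (adjusted p = 7.16e-04): its start had peaks in all 8 CFPAC1 libraries and in no MiaPaCa2 library, while a peak past its far end was present in all 12.

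Members were grouped into 16 clusters wherever 2 neighbours lay over 1 Mb apart, and the clusters differed in direction. Cluster 16, from ZNF628 to ZNF446 at chr19:55476617-58489533, had 24 higher and 2 lower of 49 tested members. Cluster 12, from ZNF575 to ZNF296, had 16 higher and 1 lower of 22. Cluster 15, from ZNF175 to ZNF331 at chr19:51571283-53580269, was the one cluster of 5 or more tested members with more of them lower than higher: 5 higher and 9 lower of 32, with a median of 0.00. The lower ones, ZNF836, ZNF610, ZNF880, ZNF701, ZNF888, ZNF816, ZNF347, ZNF665 and ZNF761, begin past ZNF577, ZNF649, ZNF615 and ZNF616, which were higher; ZNF766, also higher, lies between the first and the next of them. Other genes inside that span had 1 higher and 4 lower of 10 and a median of −0.44. Those inside cluster 16 had 8 higher and none lower of 19. Some peaks count for members and for these other genes alike. Peaks near ZNF816 and ZNF665 also overlap ZNF816-ZNF321P and LOC124904792, and that of ZNF470 overlaps ZNF470-DT. The other genes are therefore not a separate measure. Centred on chromosome 19 genes, more members were lower than higher in cluster 16 (6 higher and 16 lower, median −0.26) and cluster 12 (1 and 6, median −0.22) as well, and cluster 15 had none higher and 23 lower, with a median of −0.56. The split by cluster was not tested as such.

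**Figure D4:**
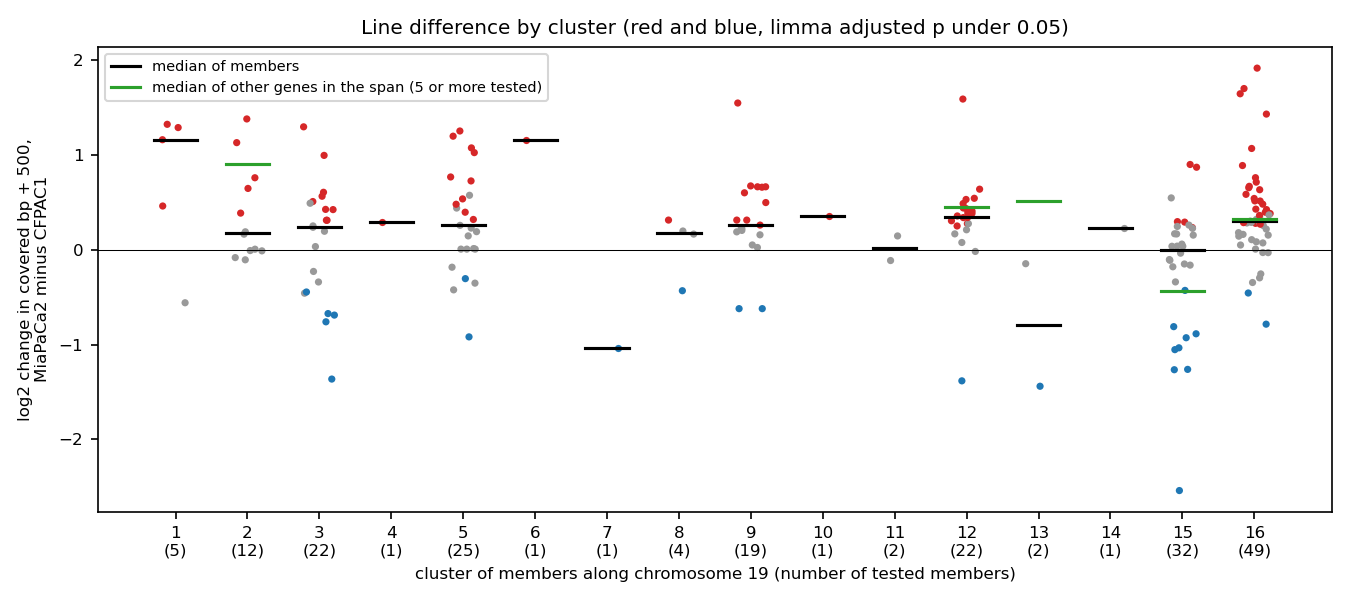
Log2 difference in covered bp + 500, MiaPaCa2 minus CFPAC1 (vertical axis), for each tested member by cluster; black bars are members' medians, green bars medians of other genes within the cluster's span, red and blue points passed limma's test. Cluster 15 has its members' median at 0.00 and its neighbours' at −0.44, and cluster 16 has medians of 0.30 and 0.32.

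Cluster 5, from ZNF101 to ZNF254 at chr19:19668153-24129968, had the least coverage among clusters of 5 or more. Of its 37 members 11 were covered in all 12 libraries and 11 in none, and its mean was 574 bp in MiaPaCa2, 408 bp in bulk CFPAC1 and 580 bp in clones. From ZNF43 to ZNF730, at chr19:21804946-23147221, 11 adjacent members were at 0 bp in all 4 MiaPaCa2 libraries, and the 7 from ZNF676 to ZNF728 in all 12. Past this stretch coverage returned: ZNF724 held 1034 to 1893 bp in MiaPaCa2, and ZNF91, next to it, is given above. Of the 25 members tested in the cluster 10 were higher in MiaPaCa2 and 2 lower, ZNF506 and ZNF681. A shorter run without any peak, ZNF563, ZNF442 and ZNF799, lies at chr19:12317477-12415084. The remaining members at 0 bp in all libraries were spread over other clusters, among them ZNF331, whose recorded start lies inside the gene and had peaks in MiaPaCa2 and none in CFPAC1.

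After 2 h of interferon in CFPAC1, 1 of 199 tested members was higher, ZNF541, beside 0.63% of all genes, and none was lower, beside 0.257% (0.888% in either direction). At unadjusted p under 0.05 there were 17 of 199, beside 10.9% of all genes. The median log2 change was 0.05, and 0.04 over all genes. Without centring these medians were −0.10 and −0.12. ZNF541, known for its role in meiosis of male germ cells, held 806 and 712 bp in untreated and 2044 and 2607 bp in treated CFPAC1. In MiaPaCa2 it held 826 and 876 bp untreated and 1696 and 1539 bp treated. Treated libraries lay above untreated ones in both lines, by 1.32 ± 0.18 in CFPAC1 (adjusted p = 0.00936) and 0.75 ± 0.18 in MiaPaCa2 (adjusted p = 0.148), while WT and KO clones held 629 to 932 bp. The peaks do not touch ZNF541: the main one lies at chr19:47514167-47517383, over NAPA, a gene of vesicle fusion, 55717 bp from the start of ZNF541. With the gene start as the only window, no member passed the test. The call was also lost with 2 kb windows, with the 4 libraries of the comparison alone, and without any 1 of these 4 libraries (adjusted p of 0.0645 to 0.0998).

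Of members with peaks in both untreated CFPAC1 libraries, 4 had none in both treated ones: ZNF763, ZNF493, ZNF730 and ZNF233, beside 1.22% of all genes. No member went from 0 bp to covered in both, beside 0.441%. Untreated, ZNF233 held 669 and 626 bp, ZNF730 277 and 558 bp, ZNF763 355 and 264 bp and ZNF493 276 and 233 bp. None of these changes passed the test across genes; that of ZNF233 was −1.04 ± 0.22 (adjusted p = 0.0720). All 4 had peaks in each of the 4 clones, for which the labels name no interferon. In raw bp, 75 of 239 members had both treated libraries below both untreated ones, beside 31.8% of all genes, and 19 had them above, beside 6.64%. The treated CFPAC1 libraries held 85623 and 85908 peaks and the untreated ones 97416 and 102802, and the part of this in the raw values was not tested.

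In MiaPaCa2 no member passed the test after interferon, beside 0.56% of all genes higher and 0.0579% lower (0.618% in either direction), and 9 of 199 had an unadjusted p under 0.05, beside 7.4% of all genes. The median log2 change was 0.10 over members, 0.03 over all genes and −0.08 over the other genes of chromosome 19. Without centring, the median was 0.00 over members and −0.07 over all genes. Among members whose treated and untreated libraries did not overlap, the smallest p-values after ZNF541 were those of ZNF836 and ZNF497. ZNF836 had 0 bp in both untreated libraries and 314 and 275 bp in the treated ones, a change of 0.77 ± 0.23 (adjusted p = 0.298), and passed with a pseudocount of 100 bp (adjusted p = 0.0314). ZNF761 likewise had 0 bp untreated and 225 and 212 bp treated, and such a switch was seen in 0.305% of all genes. ZNF497 held 4439 and 2442 bp untreated and 1725 and 1692 bp treated, a change of −0.69 ± 0.20 (adjusted p = 0.298). Without untreated library 2 the change was −1.02, with untreated library 1 alone on that side. In ZNF497, 6 of the peak regions within the gene were found in untreated MiaPaCa2 library 1 only. That library held 6422 peaks on chromosome 19, and the other MiaPaCa2 libraries 3598 to 4447. In raw bp 46 of 239 members had both treated libraries above both untreated ones, beside 6.25% of all genes, and 31 below, beside 16.9%. The treated MiaPaCa2 libraries held 59896 and 69218 peaks and the untreated ones 85442 and 71515, and the part of this was not tested.

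The response of the lines was compared directly as the difference of the interferon changes. No member passed the test, beside 0.0193% of all genes in each direction (0.0386% together), and 19 of 199 had an unadjusted p under 0.05, beside 7.35% of all genes. The smallest p-values among members without overlap in either line belonged to ZNF570, ZNF569 and ZNF724. ZNF570 and ZNF569 share 1 start region and so 1 set of values: 3294 and 3095 bp in untreated CFPAC1, 1812 and 1018 bp with interferon, 3509 and 3654 bp in untreated MiaPaCa2 and 3658 and 3770 bp with interferon. The difference of changes was 0.97 ± 0.26 (adjusted p = 0.385). In ZNF724 961 and 764 bp in CFPAC1 became 234 and 0 bp, and 1034 and 1711 bp in MiaPaCa2 became 1763 and 1893 bp, a difference of 1.45 ± 0.40 (adjusted p = 0.385).

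**Figure D5:**
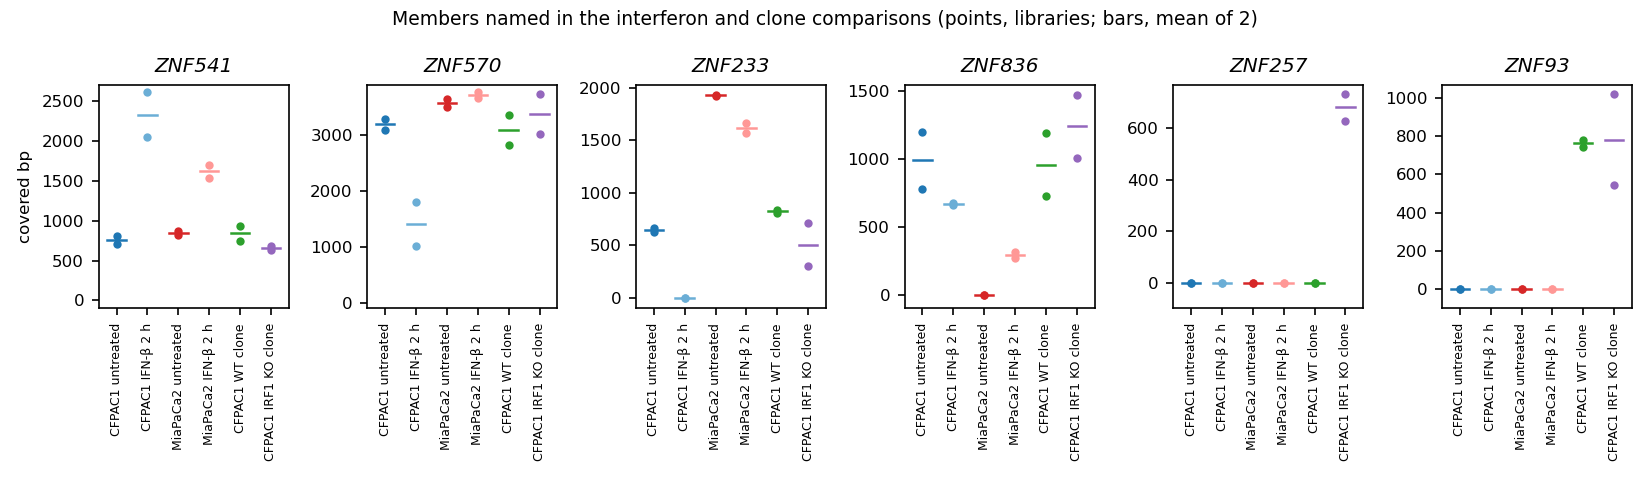
Covered bp (vertical axis, own scale for each gene) of 6 members by group; points are libraries and bars the mean of 2. ZNF541 is higher with IFN-β in both lines, ZNF233 has no peak in treated CFPAC1, ZNF257 has peaks only in the IRF1 KO clones and ZNF93 only in clones.

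Between IRF1 KO and WT clones 1 member differed, ZNF257, beside 0.547% of all genes higher and 0.431% lower in KO clones (0.978% together). In the same comparison 9 of 199 members had an unadjusted p under 0.05, beside 14.4% of all genes. The median log2 difference was −0.06 over members and −0.05 over all genes, and 0.07 and 0.08 without centring. ZNF257 held 732 and 627 bp in the KO clones and 0 bp in the other 10 libraries, a difference of 1.11 ± 0.19 (limma adjusted p = 0.0356). It met the filter of at least 2 covered libraries only through the KO clones, where it was high. The p-value is therefore not separate from the values that let it in. Its peaks were weak, at 4.13-fold to 7.81-fold by the authors' values, and lay over its start at chr19:22051944-22053076, inside the long stretch of cluster 5 where most members had none. The call was lost with quantile normalization, with the clones fitted alone, with a replicate block, and without WT clone 1, WT clone 2 or KO clone 2. With peaks of −log10 q of at least 5, or with the same number of peaks per library, no member was called either. Without KO clone 1 there were 3 calls of 199, 1 higher and 2 lower, beside 5.1% of all genes. With 2 clones a group, differences between single clones cannot be told apart from the knockout.

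Besides ZNF257, the members ZNF439, ZNF486, ZNF285 and ZNF577 were at 0 bp in both WT clones and covered in both KO clones, 5 in all, beside 1.62% of all genes. None went the other way, beside 0.205%. Of these, ZNF439 and ZNF577 had peaks in some bulk CFPAC1 libraries as well, and ZNF486 had 298 and 204 bp in KO clones alone. In raw bp 62 of 239 members had both KO clones above both WT clones, beside 21.1% of all genes, and 22 below, beside 8.45%. The KO clones held 80876 and 109834 peaks and the WT clones 90115 and 80584, and the part of this in the raw values was not tested. ZNF93, known to repress LINE-1 retrotransposons, separated clones from bulk cells instead. It held 781 and 740 bp in WT clones, 545 and 1017 bp in KO clones and 0 bp in all bulk libraries of both lines. Such a pattern in CFPAC1 was seen in 1 member and in 0.145% of all genes, and the reverse in no member and 0.015%; it was noted after the values were seen.

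The partners of KRAB zinc finger proteins were covered almost throughout. Of 22 genes for the TRIM28 corepressor, heterochromatin and DNA methylation machinery, 21 were covered in all 12 libraries, beside 57.1% of all genes. In MiaPaCa2 8 were higher and 2 lower than in CFPAC1, beside 35.3% and 23.9% of all genes, and none passed the test in the other comparisons. TRIM28, the corepressor itself, held 5109 to 5825 bp in MiaPaCa2 and 4203 to 5075 bp in bulk CFPAC1, a difference of 0.26 ± 0.06 (adjusted p = 0.00491). Larger differences were seen for DAXX, a histone chaperone (0.90 ± 0.06, adjusted p = 1.52e-06), CBX1, a heterochromatin protein (0.96 ± 0.11, adjusted p = 3.62e-05), and ATF7IP, a cofactor of SETDB1 (0.80 ± 0.10, adjusted p = 1.04e-04). SETDB1 itself differed by 0.22 ± 0.10 (adjusted p = 0.0720). DNMT3A, which sets new DNA methylation, was the one not covered throughout, at 0 bp in all 4 bulk CFPAC1 libraries, 1630 to 3407 bp in MiaPaCa2 (2.44 ± 0.34, adjusted p = 1.57e-04) and 0 to 1937 bp in clones. UHRF1, which guides maintenance methylation, differed by −0.58 ± 0.17 (adjusted p = 0.0164), and CBX5 by −0.19 ± 0.07 (adjusted p = 0.0389). Centring on chromosome 19 genes moves each log2 difference by 0.56, which turns the sign for TRIM28, MPHOSPH8, DNMT1 and CHD3, the smallest of the 8.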

How the data were processed

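H3K27ac peaks of 12 libraries (6 groups of 2) were analysed. Per the submitters' processing notes, reads were trimmed with Trimmomatic 0.38, aligned with Bowtie2 2.2.6, handled with SAMtools and called with MACS2 2.1.0.20150731 on GRCh38 (hg38). Each deposited list holds, per the authors' peak format, a score, a fold enrichment over background (a ratio), and −log10 p and −log10 q values per peak. The score was not used. Whether a control library or filter was used is not given in the sources used here. No list holds read counts, so depth is unknown and no counting interval can be given. The lowest −log10 q was 1.30 to 1.37, and 0 to 55 peaks per list off the chromosomes used were left out.

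Genes came from RefSeq (GRCh38.p14). For each protein-coding gene, bp under peaks within 5 kb of either end were counted (bp in both windows once). Genes covered in at least 2 libraries (15544) were tested on log2(bp + 500), centred on each library's mean, with limma 3.58.1 (R 4.3.3) in a 6-group model with eBayes' trend option (6 residual df), Benjamini-Hochberg over all tested genes, threshold 0.05. A low-covered gene's log2 difference is understated by the pseudocount. There were 5 comparisons: line, interferon in each line, the difference of the interferon changes, and IRF1 KO against WT clones. The fit was tested on simulated data. Named were members silent in 1 line only, the 10 largest called line differences per direction, every called member of the other comparisons or else the 3 smallest p-values without overlap, the 3 highest and lowest coefficients of variation, and runs of 3 or more adjacent members at 0 bp; those named outside the rule are stated in place. The members, lists and tests were chosen with earlier results of these data known. Alternatives are given in the closing section. Python 3.11.15 with pandas 2.3.3 was used for coverage.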

Additional observations from a re-analysis of the deposited data

How the results depend on the processing

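Of 32 named member values, 26 passed the threshold, and 18 of these passed it under every alternative that gave them a value. The naming rule took called members and members silent in 1 line, so these passes follow largely from the choice. They are not separate support. Over 672 alternative values of these members, 650 kept direction and side of the threshold, 20 lost the threshold, 2 gained it and none changed sign. Alternatives that gave a member no value are left out of these counts. Among them are ZNF257 with −log10 q of at least 5 and ZNF541 with gene starts only, where no member was called. The count of members differing between the lines (111) was 72 in interferon-treated libraries alone and 88 to 111 without each library in turn. Interferon in CFPAC1 (1 member) gave 0 with 2 kb windows, with the libraries of the comparison alone and with gene starts only. It gave 2 with −log10 q of at least 5, with the same number of peaks per library, with a pseudocount of 100 bp and with no centring, and 0 to 0 without each library. Interferon in MiaPaCa2 (0 members) gave 1 with a pseudocount of 100 bp and 0 to 1 without each library. KO against WT clones (1 member) gave 0 with −log10 q of at least 5, with the same number of peaks, with quantile normalization and with the libraries of the comparison alone. It gave 2 with no filter on covered bp and 0 to 3 without each library. Members silent in MiaPaCa2 only (6) were 3 with −log10 q of at least 5, 3 with the same number of peaks and 2 with at least 500 bp in every library of the covered line. Those silent in CFPAC1 only (5) were 3 with at least 500 bp. Except where fewer libraries or peaks entered by construction, the cause was not tested.

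Same-numbered libraries were checked for pairing: their deviations correlated at 0.21 in CFPAC1, −0.07 in MiaPaCa2 and −0.07 in the clones. The labels give no shared source, so the numbers were not taken as pairs. With a replicate block the line comparison gave 102 members (78 higher, 24 lower), interferon in CFPAC1 1, interferon in MiaPaCa2 0, the difference of responses 0 and the clones 0. Alternatives on gene starts and on centring by chromosome 19 genes were chosen after seeing the data. With 2 libraries a group and depth unknown, a peak just above the authors' threshold in 1 library and just below it in another counts as covered and as 0 bp, which limits members with short, weak peaks most.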
